A study of Rattus norvegicus with 6 samples.

Results

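The ribbon synapse and synaptic vesicle genes were examined in the retina of diabetic rats with and without Compound Danshen Dripping Pill (CDDP). The set held 38 genes listed by their role in transmitter release, and 37 of them had a probe row of their own among the 18166 genes tested. Unc13a, a priming factor of vesicle release, was not analysed here. The membership used no measured value. The genes and the lists beside them were, however, chosen with earlier results of these arrays known.

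Retinal RNA was hybridised to Affymetrix Rat Gene 2.0 ST arrays, which measure transcripts with short probes. There were 3 arrays of the HCDDP group and 3 arrays of the diabetic group. According to the methods, both groups were male SD rats that received a high fat diet for 4 weeks and then an intraperitoneal dose of streptozotocin (STZ, a toxin of the insulin-producing beta cell) of 30 mg/kg. The HCDDP rats then received CDDP, which holds Danshen, notoginseng and borneol, through gavage for 12 weeks at a daily 0.4 g/kg, while the diabetic rats received saline. The labels name the treatment as Danshen, give no dose, and set the age at 17 weeks for both groups. The methods start with rats of 5 weeks, and with 4 weeks of diet and 12 weeks of treatment the age at sacrifice would be above 17 weeks. What the labelled age refers to is not stated. No array of a rat without diabetes is in the comparison, so every difference below is between treated and untreated diabetic rats. Whether each array held the RNA of 1 rat is not stated, so p-values cover the spread of these samples alone, and that spread may be technical.

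Photoreceptors and bipolar cells release glutamate continuously from ribbon synapses. The ribbon is a plate built largely of RIBEYE, a product of the Ctbp2 gene, and it tethers vesicles above the active zone. The vesicle fuses when the SNARE proteins of the vesicle and of the cell membrane zip together, a step that synaptotagmins and complexins control. Nsf and its adaptors then take the spent SNARE complex apart, and endocytosis retrieves the membrane. Conventional synapses, such as those of amacrine cells, use much of the same machinery and in addition carry synapsins, which hold vesicles in reserve. Ribbon terminals are known to lack synapsins.

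Rod genes of the labelled tissue, retina, were bright on every array. Some markers from outside the neural retina, given below, were bright as well. The markers therefore do not show that the samples held retina alone. The rod genes Sag (arrestin) and Gnat1 (transducin) gave mean log2 signals of 12.31 and 12.80 in the HCDDP group and 12.74 and 13.14 in the diabetic group. Across all genes, the span between the 10th and 90th percentiles of the log2 signal was narrowest in the arrays numbered 3 (4.48 for HCDDP and 4.45 for diabetic), against 4.92 to 5.19 in the other 4 arrays. Arrays correlated with each other across genes at 0.954 to 0.982. In a bulk sample, fewer cells of a type and less RNA per cell cannot be told apart.

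Of the measured genes of the release machinery, 33 did not pass the study's threshold and 4 did. Syn3, Syn1 and Snap25 were lower and Hip1r was higher in the HCDDP group at the study's threshold, set by the methods at p under 0.05 before adjustment and a change of more than 1.5-fold. Those 4 genes are 10.8% of the 37 measured members, where 3.2% of all genes tested passed by limma. The lower calls were 3 of 37 members against 2.28% of all genes, and the 1 higher call stood against 0.925% of all genes. No member passed an adjusted p of 0.05 by limma. The same 4 members had an unadjusted p under 0.05, as did 6.05% of all genes. Among all genes 1, or 0.0055%, passed after adjustment. By the methods' t-test, 2 members, Syn3 and Hip1r, passed the study's threshold against 1.08% of all genes, and 0 passed after adjustment. The smallest adjusted p among the members was 0.782 from limma.

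**Figure D1:**
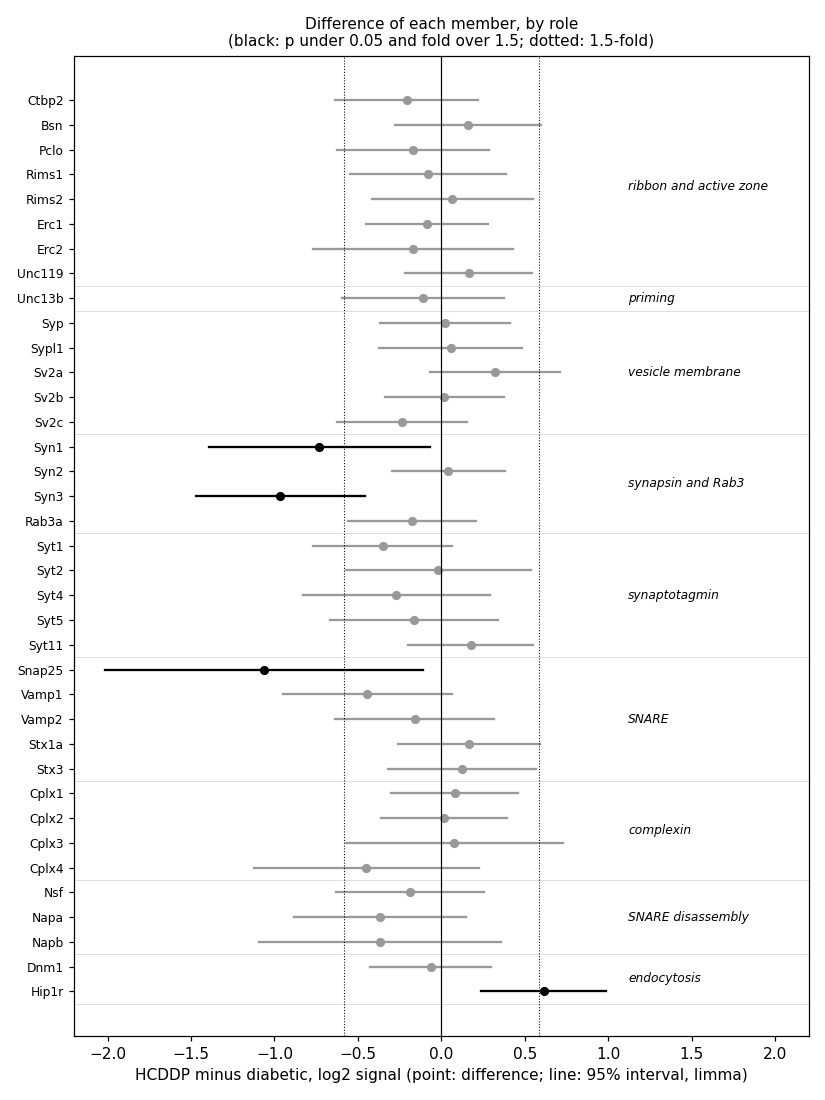
The HCDDP minus diabetic difference in log2 signal of each of the 37 measured members, grouped by role, with its 95% interval from limma. Black marks the 4 members past the study's threshold (Syn1, Syn3, Snap25 and Hip1r), and the intervals of the other 33 members all include 0.

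Over the 37 members the median log2 difference was −0.09, and over all genes it was −0.01. There were 22 members with a difference below 0 and 15 above, or 59.5% below, where 51.6% of all genes lay below 0. For 4 members the arrays were separate between the groups (Syn3 and Syt1 lower, Hip1r and Sv2a higher), which is 10.8% against 10.7% of all genes. By direction, 4.3% of all genes were apart and lower and 6.43% apart and higher. The share of members with separate arrays was thus close to that of all genes, while the share past the study's threshold was above it. Among genes above the median signal, 4.19% passed. The set was chosen with earlier results of these arrays known, so the higher share is a description and not a test of the set.

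The synapsins, phosphoproteins that cluster vesicles in a reserve pool, differed in their values. Syn3 had log2 signals of 6.29, 6.11 and 5.70 across the 3 HCDDP arrays, in order of replicate number as in all lists below, and of 7.16, 7.17 and 6.66 across the 3 diabetic arrays. Every HCDDP array lay below every diabetic array. The HCDDP mean was 6.03 ± 0.30 (SD, n = 3) and the diabetic mean 6.997 ± 0.29 (SD, n = 3), 1.95-fold higher in the latter. The log2 difference was −0.97 ± 0.22 (standard error, SE, unadjusted p = 0.00221, adjusted p = 0.782 from limma). The exact two-sided permutation p was 0.1, the smallest that 3 arrays against 3 allow. The arrays of the same number, which neither the labels nor the methods pair, differed by −0.88, −1.06 and −0.95. Since the groups were separate, any pairing would give differences below 0. Syn3 also passed the threshold whichever single array was left out, with differences from −1.13 to −0.80.

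Syn1, a synapsin of conventional terminals, was lower with more spread. Its log2 signals were 6.85, 7.25 and 6.74 in the HCDDP arrays and 8.01, 7.998 and 7.03 in the diabetic arrays. Diabetic array 3 lay within the HCDDP range, and the other 2 diabetic arrays lay above it. The difference was −0.73 ± 0.29 (SE, 95% interval −1.39 to −0.07, unadjusted p = 0.0340, adjusted p = 0.782 from limma), and the exact permutation p was 0.2. Within same-numbered pairs, the HCDDP array was lower in 3 of 3, by 1.16, 0.75 and 0.29 log2 units. Since the groups overlapped, another pairing of these unpaired arrays could give a difference above 0.

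Syn2, the third synapsin gene, showed no such difference. Its signals were 7.45, 7.42 and 7.31 in the HCDDP arrays and 7.38, 7.33 and 7.35 in the diabetic arrays, which overlapped. The log2 difference was 0.04, with a 95% interval from −0.30 to 0.38 that leaves out a 1.5-fold change in either direction. The interval of Syn3, −1.47 to −0.46, does not meet that of Syn2. A difference between these genes in response was not tested.

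Each synapsin gene holds a gene of the Timp family, inhibitors of matrix metalloproteinases, within its span in the RefSeq annotation of the GRCr8 assembly. Timp1 (chrX:3766509-3772578, minus strand) lies inside Syn1 (chrX:3725745-3780940, plus strand). Timp4 (chr4:149978667-149985350, minus strand) lies inside Syn2 (chr4:149858919-150016845, plus strand). Timp3 (chr7:19408539-19459558, minus strand) lies inside Syn3 (chr7:19244032-19701571). Neither the positions nor the strand of the array's probes were used here, so no probe was placed on these spans. The nested genes were read from probe rows of their own.

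The nested genes had other differences than their hosts, which were set side by side and not tested against each other. Timp1 was at 7.78, 8.31 and 7.74 in the HCDDP arrays and at 6.95, 7.25 and 7.24 in the diabetic arrays, with every HCDDP array above every diabetic array. Its log2 difference was 0.80 ± 0.20 (SE, unadjusted p = 0.00417, adjusted p = 0.782 from limma), while that of its host Syn1 was −0.73. Timp3 had a difference of −0.18 ± 0.16 (SE, adjusted p = 0.825 from limma), against −0.97 for its host Syn3. The Timp3 groups overlapped. Timp4 had a difference of −0.33 (adjusted p = 0.782 from limma), with every HCDDP array below every diabetic array, against 0.04 for Syn2.

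**Figure D2:**
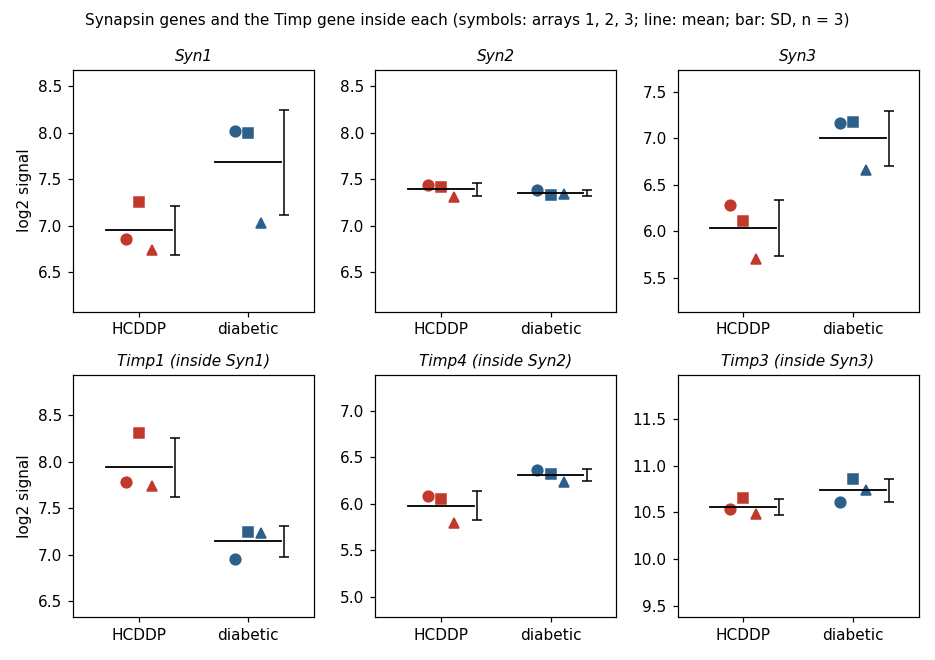
The log2 signal of each array for the 3 synapsin genes (top) and the Timp gene within each (bottom). Circles, squares and triangles are arrays 1, 2 and 3, lines are group means and bars are SD (n = 3). Syn1 and Timp1 lie in opposite directions, Syn3 is separated by −0.97 while Timp3 overlaps, and Syn2 overlaps while Timp4 is separated by −0.33.

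Snap25 encodes the SNARE protein that the cell membrane contributes together with syntaxin. It had the largest difference of the members and also the widest spread. Its log2 signals were 10.50, 11.02 and 10.73 in the HCDDP arrays and 12.14, 12.55 and 10.75 in the diabetic arrays. Diabetic arrays 1 and 2 lay above all 3 HCDDP arrays by more than 1 log2 unit, whereas diabetic array 3 lay within the HCDDP range. The mean was 10.75 ± 0.26 (SD, n = 3) against 11.81 ± 0.94 (SD, n = 3), a log2 difference of −1.06 ± 0.42 (SE, unadjusted p = 0.0333, adjusted p = 0.782 from limma). The exact permutation p was 0.2. The pairs of the same number differed by −1.64, −1.53 and −0.02. These pairs rest on the numbering alone, and since the groups overlapped another pairing could give a difference above 0. The Snap25 difference came almost wholly from the high values of diabetic arrays 1 and 2.

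The other SNARE genes did not pass. Vamp1, a synaptobrevin of the vesicle membrane, had signals of 7.98, 8.31 and 7.72 in the HCDDP arrays and 8.77, 8.38 and 8.19 in the diabetic arrays, with a difference of −0.44 (unadjusted p = 0.0795, adjusted p = 0.782 from limma). Its groups overlapped through HCDDP array 2, and without that array it passed the study's threshold. Vamp2, the main brain synaptobrevin, had a difference of −0.16 and a 95% interval of −0.64 to 0.32. Stx3, the syntaxin of ribbon terminals, had 0.12, and Stx1a, the syntaxin of conventional terminals, had 0.17. Stx1a was read from the brighter of its 2 probe rows, and the other row gave 0.30. The intervals of all of these included 0.

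Hip1r was the member that was higher. Its protein binds clathrin light chain and actin and takes part in endocytosis. Its log2 signals were 6.99, 6.68 and 6.70 in the HCDDP arrays and 6.13, 6.14 and 6.25 in the diabetic arrays, with no overlap. The mean was 6.79 ± 0.17 (SD, n = 3) against 6.17 ± 0.06 (SD, n = 3), a log2 difference of 0.61 ± 0.16 (SE, unadjusted p = 0.00517, adjusted p = 0.782 from limma). The exact permutation p was 0.1. The arrays of the same number differed by 0.86, 0.53 and 0.45, and with no overlap any pairing would give differences above 0. Leaving out HCDDP array 1 took it below 1.5-fold, at 0.51. The study names Hip1r among its changed genes on these same arrays, so its direction is not independent evidence. Dnm1, the dynamin that cuts endocytic vesicles from the membrane, had a difference of −0.06 with an interval of −0.43 to 0.30.

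**Figure D3:**
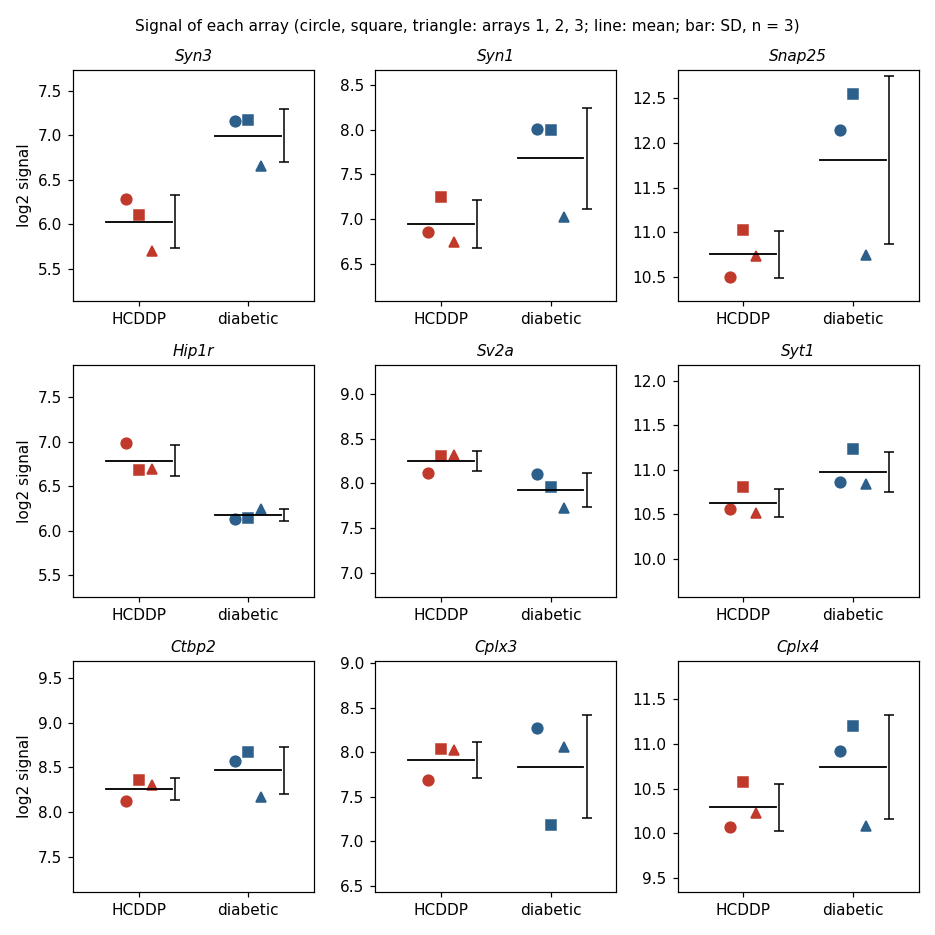
The log2 signal of each array for the 9 members described in full, with HCDDP in red and diabetic in blue. Circles, squares and triangles are arrays 1, 2 and 3, lines are means and bars are SD (n = 3), and all panels span the same number of log2 units. Diabetic array 3 (blue triangle) lies at the level of the HCDDP arrays for Syn1, Snap25, Ctbp2 and Cplx4 but above them for Syn3 and Syt1.

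At the ribbon and the active zone, 0 of 8 genes passed, and their differences ran from −0.21 to 0.16. Ctbp2 had signals of 8.13, 8.36 and 8.30 in the HCDDP arrays and 8.57, 8.67 and 8.16 in the diabetic arrays. Diabetic arrays 1 and 2 lay above the HCDDP arrays and diabetic array 3 within their range. The difference was −0.21 ± 0.19 (SE, 95% interval −0.64 to 0.22, adjusted p = 0.826 from limma). It was −0.36 without diabetic array 3, −0.11 without diabetic array 2 and −0.09 after quantile normalization. The array's row for Ctbp2 does not separate RIBEYE from the transcriptional corepressor that the same gene encodes, as far as its annotation tells. Bassoon (Bsn), which anchors the photoreceptor ribbon, had a difference of 0.16, and its large relative Piccolo (Pclo) had −0.17. The scaffold genes Rims1 and Rims2 had −0.08 and 0.07, and the CAST/ELKS genes Erc1 and Erc2 had −0.09 and −0.17. Unc119, a lipid-binding trafficking protein abundant in photoreceptors, had 0.16. The priming factor gene Unc13b had −0.11. Every one of these intervals included 0, and those of Ctbp2, Bsn, Pclo, Erc2 and Unc13b also reached a 1.5-fold change in one direction.

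The complexins clamp and promote fusion, and Cplx3 and Cplx4 are the forms of retinal ribbon synapses. Cplx3 had signals of 7.69, 8.04 and 8.02 in the HCDDP arrays and 8.28, 7.18 and 8.06 in the diabetic arrays. The lowest and the highest of the 6 values were both diabetic. Its difference was 0.08 ± 0.28 (SE, adjusted p = 0.965 from limma), and without diabetic array 2 it changed sign to −0.25. Cplx4 had signals of 10.07, 10.58 and 10.22 in the HCDDP arrays and 10.93, 11.20 and 10.08 in the diabetic arrays. As with Snap25, diabetic arrays 1 and 2 were above the HCDDP arrays and diabetic array 3 was not. The Cplx4 difference was −0.45 ± 0.29 (SE, 95% interval −1.12 to 0.22, adjusted p = 0.784 from limma), and without diabetic array 2 it was −0.22. Cplx1 and Cplx2, the forms of conventional synapses, had 0.08 and 0.02.

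Among the membrane proteins of the vesicle, 0 of 5 passed. Sv2a, a vesicle glycoprotein, had signals of 8.12, 8.31 and 8.33 in the HCDDP arrays and 8.11, 7.96 and 7.73 in the diabetic arrays. These did not overlap, although the lowest HCDDP and the highest diabetic array lay 0.01 apart. The difference was 0.32 ± 0.17 (SE, unadjusted p = 0.0956, adjusted p = 0.782 from limma). Its relatives Sv2b and Sv2c had 0.02 and −0.24. Synaptophysin (Syp), an abundant vesicle protein, had 0.02 with an interval of −0.37 to 0.41, and its relative Sypl1 had 0.06.

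Among the synaptotagmins, calcium sensors of release, 0 of 5 passed and 4 of 5 had a difference below 0, as had 51.6% of all genes. Syt1, the main fast sensor, had signals of 10.56, 10.81 and 10.51 in the HCDDP arrays and 10.86, 11.24 and 10.84 in the diabetic arrays. Every HCDDP array lay below every diabetic array. The difference was −0.35 ± 0.18 (SE, 95% interval −0.77 to 0.07, unadjusted p = 0.0882, adjusted p = 0.782 from limma), and the exact permutation p was 0.1. The pairs of the same number differed by −0.30, −0.43 and −0.33. With the replicate number as a block, the unadjusted p was 0.0377 and the adjusted p 0.365 from limma. The difference was −0.16 after quantile normalization and −0.22 without diabetic array 2. Syt2, Syt4 and Syt5 had −0.02, −0.27 and −0.17, and Syt11, which does not bind calcium, had 0.18.

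The 3 genes that recycle the SNARE complex had differences below 0, as had 51.6% of all genes, and none passed. The ATPase gene Nsf had −0.19 and the adaptor genes Napa and Napb, which encode alpha- and beta-SNAP, both had −0.37. Napa was at 8.33, 8.32 and 8.23 in the HCDDP arrays and at 9.03, 8.76 and 8.19 in the diabetic arrays. Again diabetic arrays 1 and 2 were highest and diabetic array 3 lay with the HCDDP arrays, here as the lowest of all. Rab3a, the small GTPase of synaptic vesicles, had −0.18 with an interval of −0.56 to 0.21. Of the 33 members not past the threshold, 18 had an interval that reached a 1.5-fold change in at least one direction, so for these a change of that size was within the error.

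The calls depended on single arrays. Without diabetic array 3, 6 members passed the study's threshold, with Cplx4 at −0.78 and Napa joining the other 4, but so did 10.9% of all genes. In that comparison Snap25 was at −1.59 (adjusted p = 0.0156 from limma), Syn3 at −1.13 (adjusted p = 0.0417) and Syn1 at −1.06 (adjusted p = 0.0446), and 1.71% of all genes passed after adjustment. Without diabetic array 1, diabetic array 2 or HCDDP array 3, 2 members passed, Syn3 and Hip1r. The shares of all genes were then 1.99%, 1.94% and 1.78%. Without HCDDP array 1, Syn3 alone passed, with 3.69% of all genes. Without HCDDP array 2, 5 members passed, the 4 and Vamp1, with 3.23% of all genes. Where Snap25 lost its call, its difference was −0.94 and −1.05 on leaving out HCDDP arrays 1 and 3, and −0.90 and −0.70 on leaving out diabetic arrays 1 and 2. After quantile normalization, which gives all arrays the same range, the same 4 members passed, with 3.19% of all genes, and Snap25 was at −0.81. Sv2a, at 0.42, then joined them at an unadjusted p under 0.05, as did 8.33% of all genes. With the replicate number as a block they passed as well, with 4.62% of all genes, and Syt1 and Vamp1 joined them at an unadjusted p under 0.05, as did 13% of all genes. When limma weighted the arrays by their quality, 5 members passed against 7.5% of all genes, and 7 had an unadjusted p under 0.05 against 18%. Without both arrays numbered 3, 5 members passed against 8.16% of all genes, and 16 had separate arrays against 46.7%. At a change of more than 2-fold 1 member, Snap25, passed against 0.495% of all genes.

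**Figure D4:**
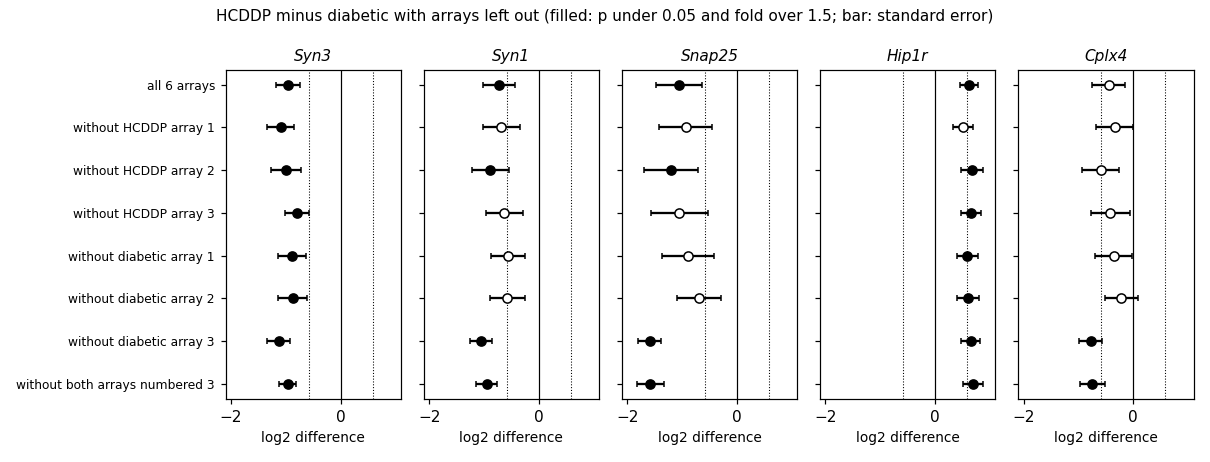
The log2 difference and its standard error for 5 members with all arrays, with each array left out and with both arrays numbered 3 left out. Filled points passed the study's threshold. Syn3 is filled in every row, while Syn1 and Snap25 are open in 4 rows, those without HCDDP array 1, HCDDP array 3, diabetic array 1 and diabetic array 2.

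The members' levels were also compared by array. The median deviation of the 37 members from their own 6-array means was −0.14, 0.13 and −0.12 across the HCDDP arrays and 0.06, 0.15 and −0.08 across the diabetic arrays, in order of replicate number. Over all genes it stayed between −0.06 and 0.04. HCDDP array 2 held 9 members, or 24.3%, at their highest, where it held 11.5% of all genes, and diabetic array 2 held 12, or 32.4%, against 18.3%. HCDDP array 1 held 11 members, or 29.7%, at their lowest against 11.6% of all genes. Diabetic array 1 held 9 at their highest (24.3% against 23.2%), diabetic array 3 held 8 at their lowest (21.6% against 20%), and HCDDP array 3 held 11 at their lowest (29.7% against 23.5%), shares nearer to those of all genes. At the other end, diabetic array 3 held 1 member at its highest (2.7% against 14.8%) and HCDDP array 3 held 3 (8.11% against 17.5%). The median shift of the members overlapped between the groups.

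Other synaptic genes were taken from a hand-written list of 81 genes outside the set, of which 70 were measured. Of these, 2 passed the study's threshold, both lower, or 2.86% against 3.2% of all genes, and their median difference was −0.02. Both belong to the Rab3 family of vesicle GTPases. Rab3b was at 6.46, 6.47 and 6.43 in the HCDDP arrays and at 7.68, 7.57 and 6.49 in the diabetic arrays, a difference of −0.79 ± 0.30 (SE, adjusted p = 0.782 from limma). Rab3c was at 6.53, 6.66 and 6.16 against 7.43, 7.78 and 6.62, a difference of −0.83 ± 0.30 (SE, adjusted p = 0.782 from limma). Diabetic arrays 1 and 2 were again well above the rest, and diabetic array 3 was close to the HCDDP arrays. With single arrays left out, Rab3c passed in 3 of 6 comparisons and Rab3b in 1, that without diabetic array 3. Rab3d had 0.18. Among the active zone scaffolds 0 of 11 passed, among the further vesicle membrane proteins 0 of 11, among the further synaptotagmins 0 of 8, among the further SNARE genes and partners 0 of 12, and among the endocytosis genes 0 of 18. The vesicle protein gene Syngr3 and the SNARE gene Vamp3 had an unadjusted p under 0.05 with smaller folds, at −0.46 and −0.50.

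Markers of retinal cell types were read beside these genes, where 51.6% of all genes had a difference below 0. Of the 8 measured bipolar markers 7 were lower, and Pcp2 and Otx2 passed the study's threshold at −1.18 and −0.66. The summed linear signal of that list was 2960 to 3721 in the HCDDP arrays and 3211 to 5713 in the diabetic arrays. Otx2 was at 10.45, 10.60 and 10.29 in the HCDDP arrays and at 11.42, 11.45 and 10.44 in the diabetic arrays. Diabetic arrays 1 and 2 were its highest, as for Snap25. Other markers of the list differed, with Grm6 at −0.52 and Trpm1 at −0.03. Of the 10 amacrine and horizontal cell markers 6 were lower and 0 passed (2776 to 3279 against 3051 to 4000). Of the 10 ganglion cell markers 9 were lower and 0 passed (1720 to 1935 against 1875 to 2243). Of the 7 rod markers 6 were lower and 0 passed (19556 to 23056 against 21705 to 29951). Of the 8 cone markers all 8 were lower and 0 passed (940 to 1313 against 1124 to 1870). The dimmest cone marker had a mean log2 signal of 3.44, near the 10th percentile of all genes, which was 3.42 to 3.84 across the arrays. Of the 9 markers of Müller glia, the main glia of the neural retina, 6 were lower and Clu passed as lower, with a median of −0.33 (7996 to 9873 against 9831 to 14543). The summed signals of these 6 lists overlapped between the groups, and 3 of their markers passed, all lower.

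Markers from outside the neural retina were checked as well. Of the 10 corneal and scleral stroma markers 9 were lower and 4 passed, all lower, and their summed signal did not overlap, at 9353 to 11413 against 13372 to 15089. Of the 10 pigment epithelium markers 9 were lower and 0 passed (8981 to 10028 against 9503 to 12766). Of the 5 lens markers 4 were lower and 0 passed (11155 to 14988 against 12292 to 16410). Of the 4 skeletal muscle markers 3 were higher and 0 passed, with a median of 0.10 (5273 to 7897 against 5625 to 7836). Of the 8 leukocyte markers 6 were lower, and the 1 that passed, Cx3cr1, was higher (1244 to 2564 against 1438 to 2497). The summed signals of these other 4 lists overlapped. No marker of these lists was at 0, since an array gives a signal for every row. Over all arrays, the brightest lens marker had a mean log2 signal of 12.70, against 12.97 for the brightest rod marker. The brightest marker was at 11.88 for corneal and scleral stroma and at 11.53 for pigment epithelium. It was at 11.14 for skeletal muscle and at 9.53 for leukocytes. The share of tissue from outside the neural retina in each sample was not tested. The part of cell composition in the synaptic gene values was not tested.

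The promoters of 4 members are shown because 3 of them hold a cAMP response element (CRE), the site of CREB-type factors, and the other belongs to the member that was higher. The sequences are the 250 bases before the 1 start site that a RefSeq promoter table (GRCr8) gives for each gene, and the table held 33 of the 38 members. That site is the outer end of the annotated gene in Syn1 and Vamp1 but lies 347 bases inside it in Napa and 102 in Hip1r, so the Napa window is within the annotated gene and the Hip1r window overlaps it. Among the 33 members the site is at the outer end in 14 and inside the gene in 19. Syn3 and Snap25 are among the 5 that it did not hold. Letters in capitals mark the CRE (TGACGTCA) and the GC box (GGGCGG), searched on both strands, and the 2 motifs did not overlap. The motifs were chosen after the values had been seen.
Syn1 (chrX:3725495-3725744, plus strand): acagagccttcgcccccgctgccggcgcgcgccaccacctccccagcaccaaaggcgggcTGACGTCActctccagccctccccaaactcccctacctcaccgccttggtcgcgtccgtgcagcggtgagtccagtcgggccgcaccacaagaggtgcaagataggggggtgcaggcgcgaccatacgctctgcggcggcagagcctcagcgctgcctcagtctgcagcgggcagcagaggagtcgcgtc
Vamp1 (chr4:159698644-159698893, plus strand): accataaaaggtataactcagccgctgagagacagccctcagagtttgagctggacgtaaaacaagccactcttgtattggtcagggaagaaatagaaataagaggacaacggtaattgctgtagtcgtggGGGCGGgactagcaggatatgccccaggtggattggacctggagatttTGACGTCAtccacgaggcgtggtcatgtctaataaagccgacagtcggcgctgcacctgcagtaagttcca
Napa (chr1:85915185-85915434, plus strand): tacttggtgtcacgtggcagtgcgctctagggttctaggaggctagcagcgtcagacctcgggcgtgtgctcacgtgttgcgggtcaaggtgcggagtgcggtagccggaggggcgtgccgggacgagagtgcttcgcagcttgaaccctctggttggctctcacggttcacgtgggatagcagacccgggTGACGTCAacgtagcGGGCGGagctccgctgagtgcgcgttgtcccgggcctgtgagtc
Hip1r (chr12:38279655-38279904, minus strand): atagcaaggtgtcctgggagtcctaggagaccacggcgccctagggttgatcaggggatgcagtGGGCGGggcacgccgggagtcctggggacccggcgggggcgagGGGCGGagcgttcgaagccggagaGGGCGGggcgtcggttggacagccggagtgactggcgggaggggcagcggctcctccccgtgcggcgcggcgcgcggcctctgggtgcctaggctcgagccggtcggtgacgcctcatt

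A CRE was found in these windows of 3 of the 33 members, Syn1, Vamp1 and Napa, and in 1.59% of all 33469 windows. It began 190 bases before the table's start site in Syn1, 71 in Vamp1 and 59 in Napa. The log2 differences of these genes were −0.73, −0.44 and −0.37, of which that of Syn1 passed the study's threshold. A GC box was found in 24 of the 33 members and in 30.5% of all windows, and Hip1r had 3. The letters TTCAGCACC, one part of the site of the neuronal repressor REST, were in 0 of the 33 and in 0.305% of all windows. TATAAA was in 1 of the 33, Ctbp2, and in 12.9% of all windows. The table's start site for Ctbp2 lies 106899 bases inside the annotated gene, and so does its window. A match describes the letters only.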

How the data were processed

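The authors scanned Affymetrix Rat Gene 2.0 ST arrays and processed them with Expression Console Software 1.41. The deposited table holds 1 log2 signal per array for 36685 probe rows. How it was background-corrected, normalized and summarised is not stated in what was used here, so the log2 scale was read from the values, and they were tested without further normalization. A platform annotation named rows, with 18394 updated by gene identifier in RefSeq (GRCr8). Rows with exactly 1 symbol were kept, and the row with the highest mean per gene, which gave 18166 genes. The symbols of 575 rows were several and 17599 rows had none. No weak-signal filter was used. Arrays give no counts, and their number, 3 a group, limits the precision.

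Groups were compared with limma 3.58.1 in R 4.3.3 (lmFit, eBayes, defaults) across all genes, with Benjamini-Hochberg adjustment, and by exact permutation (two-sided, 20 regroupings of the arrays). The fit was tested on simulated data. Members and lists were chosen with earlier results of these data known. Members described in full are those past the study's threshold, at an unadjusted p under 0.05 or with separate arrays, together with Ctbp2, Cplx3 and Cplx4. Of the other synaptic genes, those past the threshold were named, and Syngr3, Vamp3 and Rab3d after their values were seen. The Timp genes were also added after their values were seen.

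Neither the labels nor the methods pair the arrays by number. Deviations from the group means correlated across genes at 0.274, 0.292 and 0.445 between same-numbered arrays, so the numbers were treated as pairs in the replicate block. No arrays held identical values. Array weights used statmod 1.5.0, and figures used Python 3.11.15, pandas 2.3.3 and matplotlib 3.10.9.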

Additional observations from a re-analysis of the deposited data

How the results depend on the processing

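With the replicate number as a block, the same 4 members passed the study's threshold, and 6 rather than 4 had an unadjusted p under 0.05, the others being Syt1 and Vamp1, as had 13% of all genes. The block changed no other call of the members, with Syn3 at an adjusted p of 0.282 from limma. The 4 members also kept their calls under trend and robust moderation, median centring, quantile normalization, a limit to the brighter genes (mean above the median), the whole table of probe rows, the mean of all rows of a gene and fold changes from linear signals. Under these settings 3.14% to 5.17% of all rows tested passed the threshold, with 4.19% among the brighter genes. By the methods' t-test 2 members passed the threshold, and 2 had an unadjusted p under 0.05, since Syn1 and Snap25 had unadjusted p-values of 0.112 and 0.133. Over all genes, 1.08% passed the threshold by that test and 5.12% had such a p. Of the other synaptic genes 0 passed by that test, Rab3b and Rab3c being lost. With a fold change over 2, 1 member (Snap25) and 0 of the other synaptic genes passed, with 0.495% of all genes. Array weights gave 5 members past the threshold, 7 at an unadjusted p under 0.05 and 4 of the other synaptic genes, with Cplx4 joining at −0.64, while 7.5% of all genes passed the threshold and 18% had such a p. Without both arrays numbered 3, 5 members and 6 of the other synaptic genes passed, with 8.16% of all genes, and the arrays of 16 members did not overlap, as for 46.7% of all genes, with fewer arrays to overlap.

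With single arrays left out, the members past the threshold ran from 1 to 6, those at an unadjusted p under 0.05 from 2 to 7, those with separate arrays from 4 to 15, and the other synaptic genes past the threshold from 0 to 6. Over all genes, 1.78% to 10.9% passed the threshold, 2.8% to 17.9% had such a p and 15.9% to 37.5% had separate arrays. The highest counts of members and the highest shares of all genes both came without diabetic array 3. The members' median difference ran from −0.23 to −0.022, lowest without HCDDP array 2. Cplx3 ran from −0.25 to 0.30 and changed sign without diabetic array 2. The adjusted p ran from 0.0417 to 1 for Syn3, 0.0446 to 1 for Syn1, 0.0156 to 1 for Snap25 and 0.105 to 1 for Hip1r over the alternatives. Of the 28 members not described in full, 1 changed sign under quantile normalization or median centring, and 7 without HCDDP array 2. The cause of these changes was not tested.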
